A study of Mus musculus with 6 samples.

Results

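Genes of the cell cycle were examined in maxillary processes of mouse embryos at E12.5 and divided by phase. A fixed list of 53 gene symbols was matched to the annotation, and each of the 53 was found among the 53801 genes counted. Of these, 34 act mainly in G1 and S phase (G1/S) and 19 in G2 phase and mitosis (G2/M). All 53 had enough counts for a test, as did 17514 genes in all.

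RNA was sequenced from 3 WT samples and 3 samples of wnt1cre; Rosa26Dlx2/- embryos, here called Dlx2OE. The wnt1cre transgene drives Cre recombinase in the neural crest, and Cre releases a Dlx2 transgene at the Rosa26 locus. The Rosa26 allele was made in C57BL/6J mice and WT mice of that strain were bought, but whether WT embryos carried either transgene alone is not given in the sources used here. The whole process was dissected, so each sample held neural crest mesenchyme together with epithelium, vessels and blood, and RNA of littermates may have been pooled. Levels are given as CPM, counts scaled to library size by the TMM method, always in the order of samples 1 to 3. Dlx2 itself stood at 42.9, 35.0 and 45.2 CPM in WT and at 119, 131 and 123 CPM in Dlx2OE, so every sample fitted its label. Dlx2OE sample 3 stood apart from the others in its reads that the counting assigned to no annotated feature. They came to 19.7% of its gene counts, against 6.09% to 6.67% in WT and 6.91% and 9.62% in the other Dlx2OE samples.

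A cell enters the cycle when D-type cyclins with Cdk4 or Cdk6 phosphorylate the Rb family proteins, which releases E2F transcription factors and with them the genes of DNA replication. Cyclin E with Cdk2 then starts S phase at origins loaded with the Mcm helicase, and cyclins A and B with Cdk1 drive mitosis. Many genes of G1/S carry E2F sites in their promoters, whereas many genes of G2/M carry a CCAAT box and a cell cycle homology region (CHR) bound by complexes with Mybl2 and Foxm1. Facial mesenchyme at this stage proliferates strongly as the processes grow.

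The upstream sequences of 4 genes are shown because they hold these elements and belong to members described below. E2f7 and Rbl1 represent G1/S, and Mki67 and Cdk1 represent G2/M. Each runs 5′ to 3′ toward the start of the gene as given by RefSeq on GRCm38.p6, without the start itself. Capitals mark matches to the E2F motif (TTTGGCGC, TTTCGCGC, TTTCCCGC or TTTGCCGC), the CHR (TTTGAA) or the CCAAT box, on either strand. E2f7 lies on the forward strand (chr10:110745189-110745438), and Rbl1 (chr2:157204535-157204784), Mki67 (chr7:135716380-135716629) and Cdk1 (chr10:69352939-69353162) on the reverse strand. For Cdk1 the bases nearest to the start are left out because the annotation counts them as exon. They hold a further CHR match, 10 bases before the start.
E2f7: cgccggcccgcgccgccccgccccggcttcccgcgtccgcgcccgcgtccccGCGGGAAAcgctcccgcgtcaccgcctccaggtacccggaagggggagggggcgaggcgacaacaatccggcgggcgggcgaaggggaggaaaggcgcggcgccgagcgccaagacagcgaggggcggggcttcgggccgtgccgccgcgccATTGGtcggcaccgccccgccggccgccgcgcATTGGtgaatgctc
Rbl1: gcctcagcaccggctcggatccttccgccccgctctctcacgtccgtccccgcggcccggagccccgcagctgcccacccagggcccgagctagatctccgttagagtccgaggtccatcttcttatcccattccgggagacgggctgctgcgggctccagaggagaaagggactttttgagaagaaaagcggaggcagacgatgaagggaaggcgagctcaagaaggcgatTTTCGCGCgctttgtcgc
Mki67: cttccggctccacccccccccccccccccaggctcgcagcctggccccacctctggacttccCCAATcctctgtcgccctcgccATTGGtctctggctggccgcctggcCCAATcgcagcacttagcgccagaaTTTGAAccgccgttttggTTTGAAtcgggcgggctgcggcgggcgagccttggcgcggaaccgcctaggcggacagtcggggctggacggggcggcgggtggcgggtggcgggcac
Cdk1: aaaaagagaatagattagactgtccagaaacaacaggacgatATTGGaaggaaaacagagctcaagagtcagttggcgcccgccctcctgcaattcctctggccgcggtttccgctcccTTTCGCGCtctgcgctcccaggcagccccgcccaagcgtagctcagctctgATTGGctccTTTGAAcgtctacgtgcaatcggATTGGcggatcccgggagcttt

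The promoter table holds 41 of the 53 members, 26 of G1/S and 15 of G2/M. In the 250 bases upstream, the E2F motif was present in 9 of 26 G1/S members (34.6%), 1 of 15 G2/M members (6.67%) and 2.16% of all 27025 genes in the table. The 9 were Cdc25a, Cdc6, Cdk2, E2f3, E2f7, Mcm5, Mcm6, Mcm7 and Rbl1, and the G2/M member was Cdk1. Mcm6, a subunit of the replicative helicase, had 3 matches, the most of the 41 members. The CHR was found in 5 of 26 G1/S members (19.2%), 5 of 15 G2/M members (33.3%) and 18.3% of all genes, and the CCAAT box in 57.7%, 86.7% and 37.5%. A match is a run of letters and not a measured binding site.

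Few cell cycle genes passed the test for a difference between the genotypes. E2f1 and E2f7, both E2F factors of G1/S, were the members that passed an adjusted p under 0.05 in edgeR's quasi-likelihood test, and both were upregulated. That is 3.77% of the members, against 6.45% of all genes tested (2.99% upregulated and 3.46% downregulated). None passed the study's further threshold of a log2 fold change above 1 or below -1, which 3.12% of all genes passed. At an unadjusted p under 0.05, 10 members (18.9%) were higher and 0 lower, against 14.1% of all genes higher and 15.4% lower (29.5% in either direction). The log2 fold changes ran from -0.35 for Cdk1 to 0.58 for E2f1.

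Every member's 95% interval lay within 1 of 0 on the log2 scale, as did that of 63.4% of all genes, and 26 members stayed within 0.5. The lowest bound of any interval was -0.725, for Cdk1, and the highest was 0.85, for Rb1. A doubling was therefore outside the interval of each member, while some smaller changes were not. The members had 425 to 31450 counts per sample. In bulk tissue, a change in the share of cycling cells and a change of RNA per cell cannot be told apart.

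**Figure D1:**
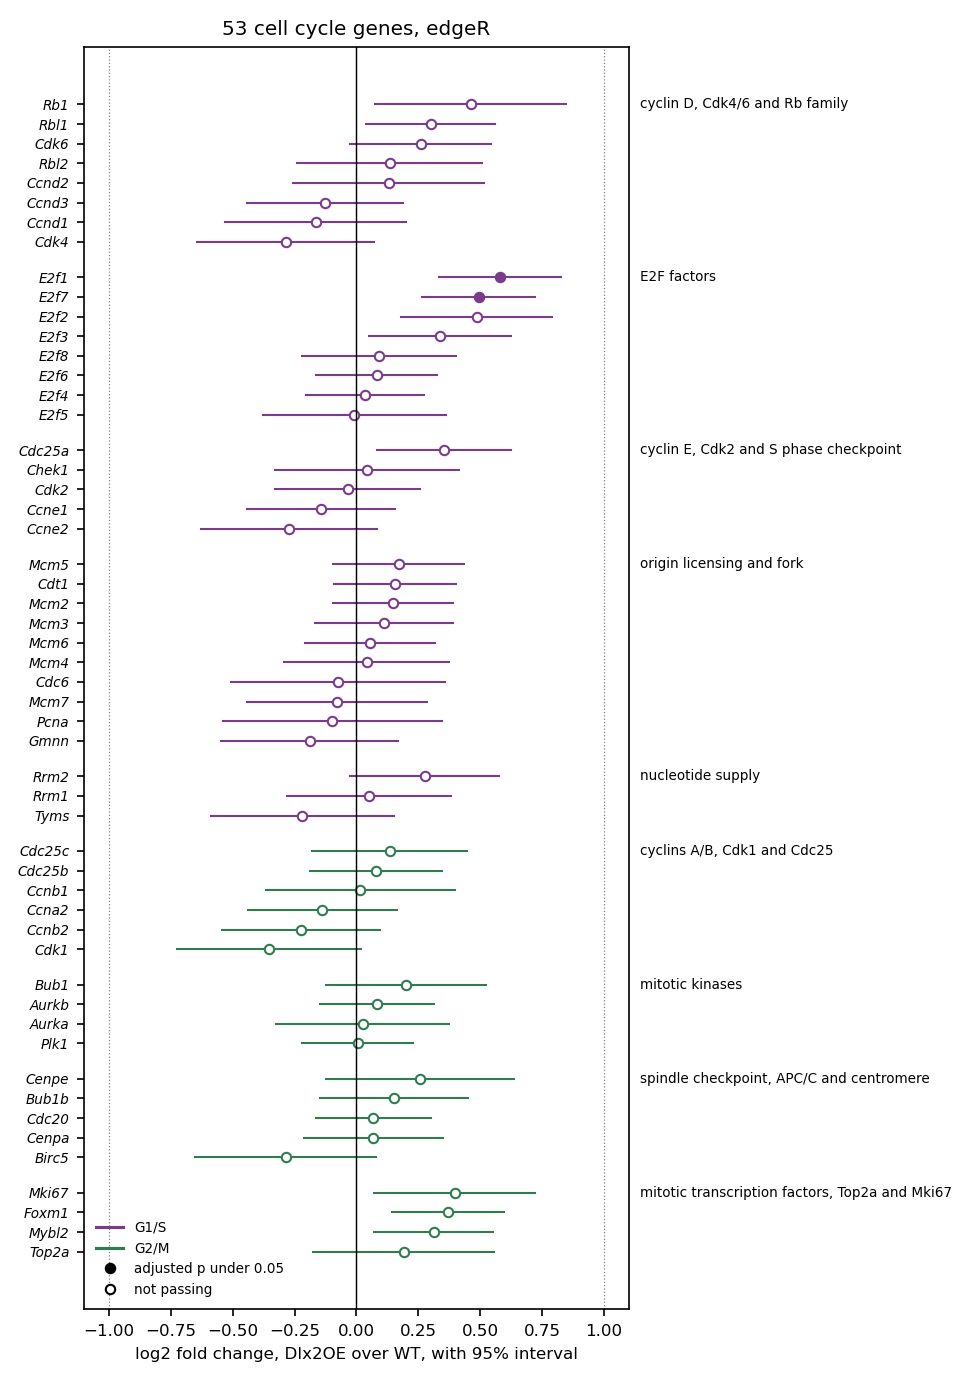
Log2 fold change of Dlx2OE over WT for 53 cell cycle genes (horizontal axis, points) with 95% intervals (lines), from edgeR with 3 samples per genotype. Genes are grouped by role, purple for G1/S and green for G2/M. Filled points mark E2f1 and E2f7, with an adjusted p under 0.05, and every interval lies between the dotted lines at -1 and 1.

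Both phases had medians slightly above 0. Of the 34 G1/S members 22 had higher and 12 lower means in Dlx2OE, with a median log2 fold change of 0.068, and of the 19 G2/M members 15 were higher and 4 lower, with a median of 0.079. The median of all 17514 genes was 0.0028, and 50.3% of them were higher. The G1/S median ranged from 0.016 to 0.15 when single samples were left out, and the G2/M median from 0.026 to 0.17. Without the genes whose transcript or role spans both phases, or with genes of published periodic score lists alone, the medians stayed between 0.047 and 0.081. With gene length and GC content corrected for, they lay further apart, at 0.053 in G1/S and 0.16 in G2/M.

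The E2F factors held both calls. E2f1 (ENSMUSG00000027490, chr2:154559407-154569892, reverse strand), an activator of replication genes, had 30.4, 28.8 and 35.3 CPM in WT and 47.4, 47.0 and 46.7 CPM in Dlx2OE. The lowest Dlx2OE sample stood well above the highest WT sample, and the 3 Dlx2OE values were nearly the same. Its mean rose from 31.5 ± 3.42 to 47.0 ± 0.345 CPM (SD, n = 3 each), which is 0.58 ± 0.11 on the log2 scale (SE, edgeR adjusted p = 0.0264). E2f7 (ENSMUSG00000020185, chr10:110745439-110787384, forward strand), an atypical E2F that represses E2F targets late in S phase, had 33.1, 36.1 and 39.3 CPM in WT and 51.8, 50.0 and 51.0 CPM in Dlx2OE. These groups did not overlap either. Its mean rose from 36.2 ± 3.09 to 50.9 ± 0.891 CPM (SD, n = 3 each), or by 0.49 ± 0.099 as a log2 fold change (SE, edgeR adjusted p = 0.0327).

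Both calls were lost when any of 4 samples was left out. Without Dlx2OE sample 3, E2f1 had a log2 fold change of 0.58 (adjusted p = 0.0766) and E2f7 of 0.49 (adjusted p = 0.0951), and 0 members passed in edgeR. The calls over all genes fell from 1130 to 315 in that fit, and 10 members had an unadjusted p under 0.05. Leaving out WT sample 1, WT sample 2 or Dlx2OE sample 2 also left 0 members with an adjusted p under 0.05, with E2f1 between 0.51 and 0.58 and E2f7 between 0.43 and 0.51, with 11, 5 and 6 members at an unadjusted p under 0.05 and with 180, 79 and 213 calls over all genes. Leaving out WT sample 3 gave 4 calls, E2f1, E2f7 and Foxm1 higher and Cdk1 lower. In that fit 11.5% of all genes were called. With DESeq2 there were 4 calls, all higher, and the added genes were E2f2 and Foxm1. DESeq2 called 13.8% of all genes. A correction for gene length and GC content left E2f1 (0.63, adjusted p = 0.0236) but not E2f7 (0.33, adjusted p = 0.0591).

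The other E2F factors varied more. E2f2, a further activator, had 14.5, 16.0 and 17.7 CPM in WT and 24.3, 20.9 and 22.3 CPM in Dlx2OE. The groups did not overlap, with a log2 fold change of 0.49 ± 0.13 (SE, edgeR adjusted p = 0.0642). E2f3, the third activator, had 72.4, 55.8 and 70.8 CPM in WT and 82.3, 91.0 and 77.9 CPM in Dlx2OE. It showed no overlap and a log2 fold change of 0.34 ± 0.12 (SE, adjusted p = 0.125). E2f4, which acts with the pocket proteins to hold genes silent, had 64.4, 70.7 and 71.6 CPM in WT and 78.5, 67.5 and 65.8 CPM in Dlx2OE. E2f5, of the same kind, had 38.6, 27.4 and 30.9 CPM in WT and 30.3, 37.3 and 28.8 CPM in Dlx2OE. Both overlapped, with log2 fold changes of 0.036 and -0.0079, whose signs changed when single samples were left out. The repressor E2f6 (0.081) and the atypical E2f8 (0.091) overlapped too. Over the 8 factors, 7 had higher means in Dlx2OE, with a median of 0.21.

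**Figure D2:**
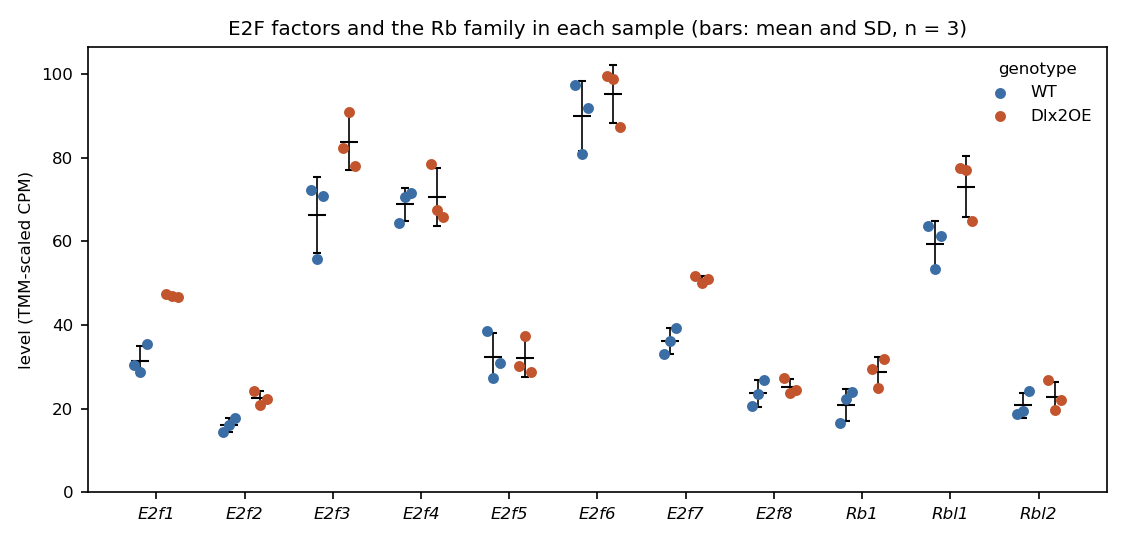
Level of 8 E2F factors and 3 Rb family genes in TMM-scaled CPM (vertical axis, from 0) in each sample, WT in blue and Dlx2OE in orange, with mean and SD over 3 samples. E2f1, E2f2, E2f3, E2f7, Rb1 and Rbl1 show no overlap between genotypes, whereas E2f4, E2f5, E2f6, E2f8 and Rbl2 do.

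Among the regulators upstream of the E2F factors, the Rb family genes had higher means in Dlx2OE and the main D-type kinase a lower one, and none passed the test. Rb1, the retinoblastoma protein, had 16.5, 22.3 and 23.9 CPM in WT and 29.5, 24.9 and 31.9 CPM in Dlx2OE. The samples did not overlap, and the log2 fold change was 0.46 ± 0.17 (SE, edgeR adjusted p = 0.121). Rbl1, which encodes p107, had 63.6, 53.3 and 61.2 CPM in WT and 77.4, 77.1 and 64.7 CPM in Dlx2OE. Its groups were separate by a small gap, with a log2 fold change of 0.30 ± 0.11 (SE, adjusted p = 0.131). Cdk4, the kinase partner of D-type cyclins, had 922.5, 870.4 and 688 CPM in WT and 709, 719.7 and 606 CPM in Dlx2OE. WT sample 3 lay within the Dlx2OE range, and the log2 fold change was -0.29 ± 0.15 (SE, adjusted p = 0.251). Part of the exon sequence of Cdk4 (19.7%, with Tspan31) and of Rb1 (14.9%, with Lpar6 and Rcbtb2) overlaps other genes, and the strand setting of the counting is not given in the sources used here.

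The remaining genes of this group were Cdk6 with a log2 fold change of 0.26, Rbl2 (p130) with 0.13, and the D-type cyclins Ccnd2 with 0.13, Ccnd3 with -0.13 and Ccnd1 with -0.16, with adjusted p from 0.2 to 0.625. Cdk6 did not overlap between genotypes, by the smallest margin, since its lowest Dlx2OE value was 58.7 CPM and its highest WT value 58.4 CPM. With the length and GC correction its log2 fold change was 0.0051. Ccnd2 was the main D-type cyclin, with 51.4% of the summed level per length of the 3 cyclins in WT and 56.2% in Dlx2OE. Over all 53 members, 11 were higher in each Dlx2OE sample than in each WT sample, against 16.7% of all genes, and 0 were lower in each, against 17.3%. Of the 11, 4 were E2F factors and 3 belonged to the cyclin D and Rb group.

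The genes of cyclin E, Cdk2 and the S phase checkpoint had means on both sides of WT, without a call. Cdc25a, the phosphatase that activates Cdk2, had 93.2, 76.8 and 96.7 CPM in WT and 121, 116 and 104 CPM in Dlx2OE. Each Dlx2OE sample exceeded each WT sample, and the log2 fold change was 0.35 ± 0.12 (SE, edgeR adjusted p = 0.1). Cdk2 had 132, 108 and 102 CPM in WT and 112, 121 and 101 CPM in Dlx2OE. Ccne2, a cyclin partner of Cdk2, had 57.7, 43.9 and 43.4 CPM in WT and 45.8, 39.7 and 34.3 CPM in Dlx2OE. Both overlapped, at log2 fold changes of -0.036 for Cdk2 and -0.27 for Ccne2 (adjusted p = 0.269), and that of Cdk2 was 0.077 without WT sample 1. Ccne1 was at -0.14, and the checkpoint kinase Chek1 at 0.043. The median of the 5 genes was -0.036.

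The genes that license origins and hold the replication fork had log2 fold changes between -0.19 and 0.17, without a call. Pcna, the sliding clamp of the DNA polymerases, had 420.3, 402 and 279.5 CPM in WT and 382, 372 and 276 CPM in Dlx2OE. Its sample 3 was the lowest of either genotype, and the spread within a genotype far exceeded the difference of means (log2 fold change -0.097 ± 0.19, SE, and 0.022 with the length and GC correction). Mcm5, a helicase subunit with the highest fold change of the group, had 244, 214 and 212 CPM in WT and 259, 269.6 and 225 CPM in Dlx2OE, and 1 WT sample lay within the Dlx2OE range (0.17, adjusted p = 0.349). Gmnn, which encodes geminin, the inhibitor of relicensing, had 59.6, 51.6 and 44.2 CPM in WT and 49.3, 49.9 and 37.1 CPM in Dlx2OE (-0.19, adjusted p = 0.438), and its fold change turned to 0.042 with the length and GC correction. The groups overlapped in all 10 genes. The other helicase subunits Mcm2, Mcm3, Mcm4, Mcm6 and Mcm7 lay between -0.080 and 0.15, and the loading factors Cdt1 and Cdc6 at 0.16 and -0.074.

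The 3 genes of nucleotide supply had no call. Rrm2, the small subunit of ribonucleotide reductase, had 183, 156 and 158 CPM in WT and 202, 227 and 173 CPM in Dlx2OE, so 1 Dlx2OE sample lay below the highest WT sample. Its log2 fold change was 0.27 ± 0.13 (SE, edgeR adjusted p = 0.199). Tyms, thymidylate synthase, had 161, 139 and 109.9 CPM in WT and 129, 123 and 99.5 CPM in Dlx2OE. Those values overlapped, at -0.22 ± 0.16 (SE, adjusted p = 0.387), and the large subunit Rrm1 stood at 0.051.

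In G2/M, the cyclin and Cdk1 module had no member with an unadjusted p under 0.05. Cdk1, the kinase of mitotic entry, had the largest decrease of all members. It had 217, 201 and 145 CPM in WT and 159, 149.9 and 131 CPM in Dlx2OE. WT sample 3 fell below 2 of the Dlx2OE samples, and the log2 fold change was -0.35 ± 0.16 (SE, edgeR adjusted p = 0.185). Without WT sample 3 it was -0.52 (adjusted p = 0.0372). Ccnb2, cyclin B2, had 110, 97.8 and 81.2 CPM in WT and 86.1, 89.5 and 72.3 CPM in Dlx2OE, an overlapping -0.22 (adjusted p = 0.308) that turned to 0.012 with the length and GC correction. Cdc25c, a phosphatase that activates Cdk1, had 41.1, 36.1 and 31.3 CPM in WT and 40.9, 43.2 and 34.8 CPM in Dlx2OE (0.13, adjusted p = 0.535). The cyclins Ccna2 and Ccnb1 were at -0.14 and 0.015, and the phosphatase Cdc25b at 0.079.

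The mitotic kinases had log2 fold changes between 0.0047 and 0.20, without a call. Plk1, which acts at centrosomes and kinetochores, had 82.4, 78.5 and 84.7 CPM in WT and 90.6, 78.4 and 77.4 CPM in Dlx2OE, a log2 fold change of 0.0047 with an interval from -0.22 to 0.23 (-0.081 without Dlx2OE sample 1). Bub1, a kinase of the spindle checkpoint, had 138, 107 and 109 CPM in WT and 142, 149 and 116 CPM in Dlx2OE (0.20, adjusted p = 0.364). WT sample 1 overlapped the Dlx2OE range. Aurka and Aurkb, the Aurora kinases, stood at 0.025 and 0.083.

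The genes of the spindle checkpoint, the anaphase promoting complex and the centromere had log2 fold changes on both sides of 0. Cdc20, an activator of that complex, had 142, 136 and 137 CPM in WT and 157, 147 and 131 CPM in Dlx2OE (0.069, adjusted p = 0.672, and -0.0023 without Dlx2OE sample 1). Cenpe, a kinetochore motor, had 231, 159 and 174 CPM in WT and 219, 257 and 197 CPM in Dlx2OE (0.26, adjusted p = 0.327). Birc5, survivin, had 133, 108 and 86.0 CPM in WT and 93.6, 93.3 and 81.0 CPM in Dlx2OE (-0.29, adjusted p = 0.262). In each of these genes the groups overlapped. Bub1b was at 0.15 and the centromeric histone Cenpa at 0.068.

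The transcription factors of mitotic genes, with Top2a and Mki67, had the largest median of any group, at 0.34, and all 4 had higher means in Dlx2OE without a call. Foxm1, a forkhead factor of mitotic genes, had 74.8, 73.3 and 86.8 CPM in WT and 99.8, 101 and 103 CPM in Dlx2OE. The groups were apart, at a log2 fold change of 0.37 ± 0.097 (SE, edgeR adjusted p = 0.0597). Mybl2, B-Myb, had 32.6, 34.4 and 39.2 CPM in WT and 45.5, 43.4 and 42.8 CPM in Dlx2OE. They did not overlap, at 0.31 ± 0.10 (SE, adjusted p = 0.102). Mki67, the gene of the Ki-67 protein used to stain dividing cells, had 697, 543 and 642 CPM in WT and 869.6, 849 and 757 CPM in Dlx2OE. Every Dlx2OE sample was above every WT sample, at 0.40 ± 0.14 (SE, adjusted p = 0.115). Top2a, the topoisomerase of mitotic chromosomes, had 937, 715 and 736 CPM in WT and 916, 1002 and 806 CPM in Dlx2OE, which overlapped (0.19, adjusted p = 0.447). All 4 fold changes shrank with the length and GC correction, to 0.28 for Foxm1, 0.27 for Mybl2, 0.23 for Mki67 and 0.082 for Top2a.

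**Figure D3:**
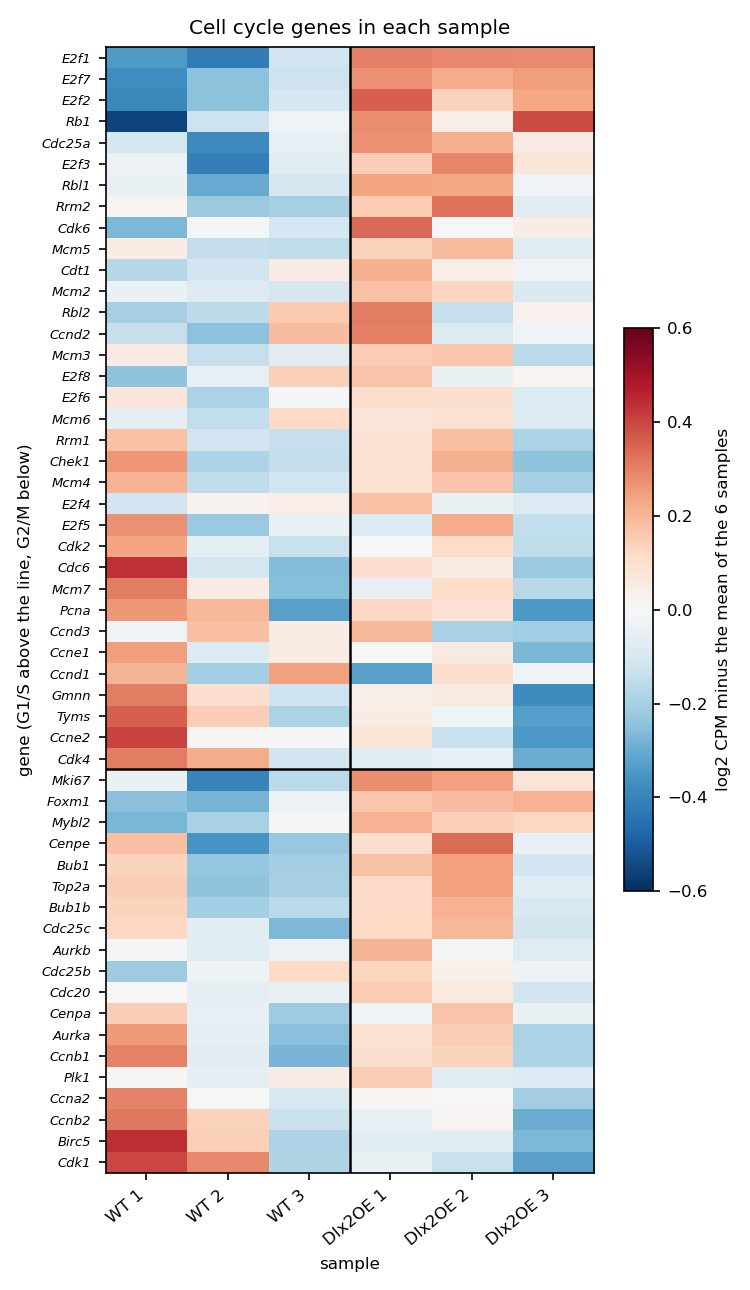
Level of 53 cell cycle genes (rows, G1/S above the line and G2/M below, ordered by fold change) in 6 samples (columns), as log2 CPM minus the mean of the samples, red for higher and blue for lower. WT sample 1 is mostly red among the WT samples and Dlx2OE sample 3 mostly blue among the Dlx2OE samples, while E2f1 and E2f7 are red in all 3 Dlx2OE samples.

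The members varied together among samples of one genotype. WT sample 1 was the highest of the WT samples in 35 of 53 members (66.0%), against 34.8% of all genes. Dlx2OE sample 3 was the lowest of the Dlx2OE samples in 44 members (83.0%), against 34.7% of all genes, and in 18 of 19 G2/M members. As the median of log2 CPM minus the mean of the 6 samples, the G1/S members stood at 0.031, -0.13 and -0.099 in WT and 0.14, 0.10 and -0.082 in Dlx2OE. The G2/M members stood at 0.13, -0.062 and -0.16 in WT and 0.12, 0.14 and -0.091 in Dlx2OE. The genotypes overlapped in both. The G1/S median minus the G2/M median was -0.10, -0.070 and 0.062 in WT and 0.025, -0.041 and 0.0092 in Dlx2OE, so the balance of the phases overlapped as well.

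Dlx2OE sample 3, with its high share of reads assigned to no feature, also had the fewest counts on genes, 26155500 against 29446773 to 31308813 in the others. All 8 neuron marker genes were detected in each sample, and their summed level was 981 CPM in Dlx2OE sample 3, 202 and 492 CPM in the other Dlx2OE samples and 88.7 to 337 CPM in WT. The part of these in the lower cell cycle levels was not tested. Without Dlx2OE sample 3, 41 members were higher and 12 lower, with medians of 0.15 in G1/S and 0.14 in G2/M.

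**Figure D4:**
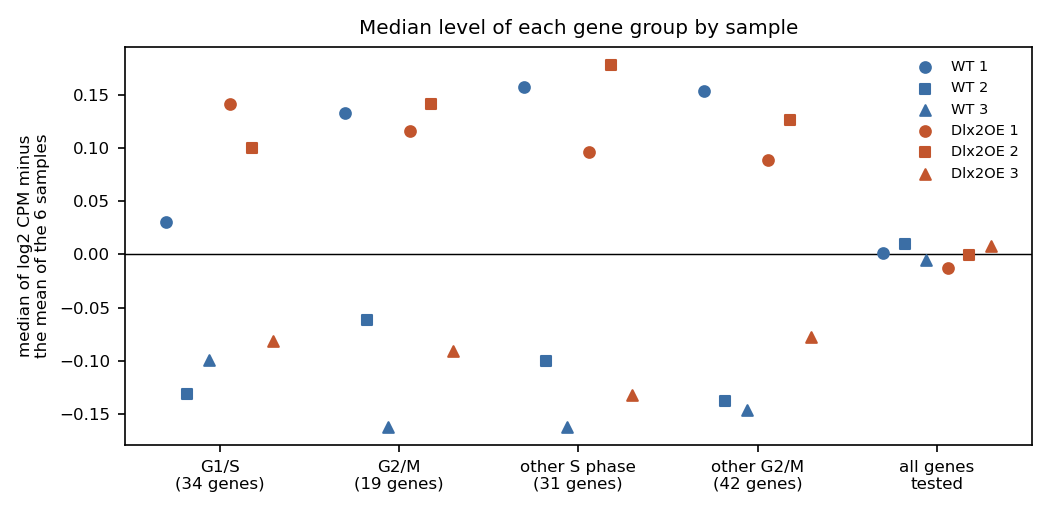
Median of log2 CPM minus the mean of the 6 samples (vertical axis) for G1/S and G2/M members, for 2 further gene lists and for all genes tested, 1 point per sample, WT in blue and Dlx2OE in orange. In each of the 4 cell cycle lists WT sample 1 is the highest WT sample, Dlx2OE sample 3 is the lowest Dlx2OE sample and the genotypes overlap, while all genes stay near 0.

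Markers of other cell types also differed. The 6 mesenchyme markers, which include Prrx1, Twist1 and Pdgfra, summed to 3232 to 3369 CPM in WT and 3644 to 3817 CPM in Dlx2OE. Erythroid markers summed to 3238 to 4306 CPM in WT and 1952 to 2527 CPM in Dlx2OE, and macrophage markers to 62.1 to 66.1 and 32.3 to 45.7 CPM. Sums for epithelium (594 to 1076 and 478 to 1540 CPM), endothelium (269 to 392 and 197 to 304 CPM), glia (141 to 148 and 93.2 to 316 CPM) and muscle (154 to 302 and 67.1 to 205 CPM) overlapped. By adjusted p under 0.05, 1 of 6 mesenchyme markers was higher, against 2.99% of all genes. Called lower were 2 of 8 erythroid, 2 of 7 macrophage, 2 of 7 epithelium and 1 of 6 endothelium markers, against 3.46% of all genes. No neuron, glia or muscle marker was called. Epithelium markers went both ways, with 3 of 7 higher and 4 lower. The 2 called lower were Krt8 (log2 fold change -2.11, edgeR adjusted p = 0.00939) and Krt18 (-1.85, adjusted p = 0.0233). In both, each Dlx2OE sample lay below each WT sample. Krt5, without a call, was higher in each Dlx2OE sample than in each WT sample (1.91, adjusted p = 0.0793). Its Dlx2OE values were uneven, at 538, 121 and 147 CPM. No marker was at 0 in any sample, and the part of these cell types in the cell cycle levels was not tested.

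Fold changes of the members moved with their annotated exon length. This length merges all annotated exons of a gene and can exceed that of a single transcript. Spearman's rho between log2 fold change and exon length was 0.41 over the 53 members, 0.33 over the G1/S members and 0.59 over the G2/M members, and 0.28 over 17496 genes tested. These are correlations across genes of the same 6 libraries. Of the 27 members up to the median length of 4635 bp, 17 were higher and 10 lower, with a median of 0.036. Among the 26 longer members, 20 were higher and 6 lower, with a median of 0.13, and they held 8 of the 10 members with an unadjusted p under 0.05. E2f1, with 3154 bp, was among the short genes and E2f7, with 9009 bp, among the long.

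**Figure D5:**
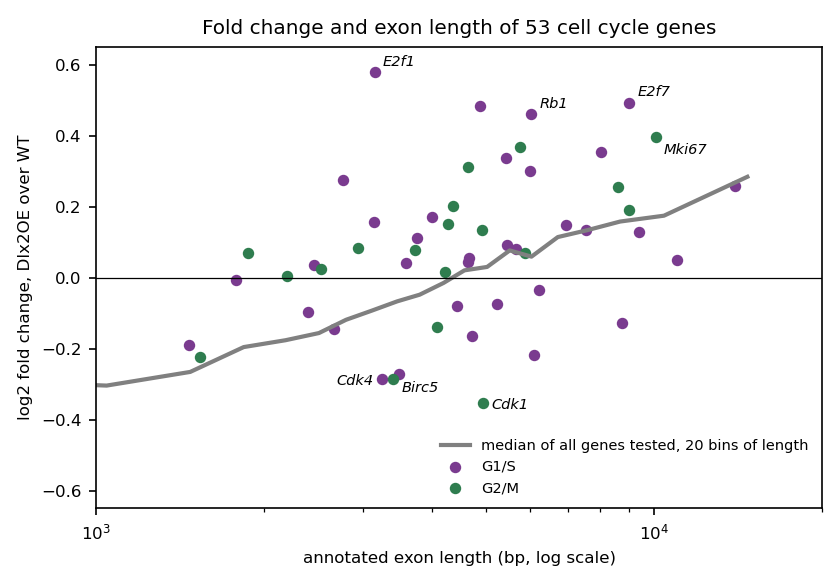
Log2 fold change of Dlx2OE over WT (vertical axis) against annotated exon length in bp (horizontal axis, log scale) for 53 members, purple for G1/S and green for G2/M. The grey line is the median of all genes tested in 20 bins of length. Of the 16 members below 0, 10 are no longer than the median of 4635 bp, and E2f1 stands high for its length of 3154 bp.

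Levels per length, as CPM per kilobase of merged exon (RPKM), differed between members by far more than between genotypes. Cdk4 was the highest in WT at 254 ± 38.0 RPKM, followed by Pcna at 153 ± 31.9 and Top2a at 88.3 ± 13.6 RPKM (SD, n = 3 each). The lowest were Rbl2 at 2.75 ± 0.386, E2f2 at 3.30 ± 0.329 and Rb1 at 3.48 ± 0.643 RPKM (SD, n = 3 each). In the order of mean levels in WT, samples of neighbouring genes were separate in 5 of 52 pairs, among them Cdk4 above Pcna and Pcna above Top2a. The median level was 18.2 RPKM in G1/S and 32.0 RPKM in G2/M members. E2f1, at 9.99 ± 1.08 RPKM in WT and 14.9 ± 0.109 RPKM in Dlx2OE, was in the lower part of this order, and so was E2f7, at 4.01 ± 0.343 and 5.65 ± 0.0990 RPKM (SD, n = 3 each).

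Wider lists of the same pathway gave little more. Of 31 other S phase genes, 20 had higher and 11 lower means in Dlx2OE, with a median of 0.12 and no call, and Brip1, a helicase of DNA repair, had the smallest p (0.52, edgeR adjusted p = 0.0515). Of 42 other G2/M genes, 28 were higher and 14 lower, with a median of 0.077 and no call. Dlgap5, a spindle protein, had the smallest p there (0.37, adjusted p = 0.0696). At an unadjusted p under 0.05 the first list had 5 higher and 2 lower genes and the second 10 higher and 2 lower, beside 14.1% of all genes higher and 15.4% lower. Of 12 genes of origin recognition and firing, 6 were higher and 6 lower, with a median of 0.013 and no call, and Gins4, of the helicase complex, had the smallest p (-0.41, adjusted p = 0.11). Among 7 partners of E2F and subunits of the MuvB complex, which binds the CHR, 3 were higher and 4 lower, with no call, and Tfdp2, a dimer partner of E2F, had the smallest p (0.27, adjusted p = 0.11).

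Of 7 inhibitors of cyclin-dependent kinases, 6 could be tested, 1 was higher and 5 were lower, and Cdkn1c was downregulated. Cdkn1c, the imprinted gene of p57, which arrests cells in G1, had 232, 277 and 304 CPM in WT and 152, 175 and 172 CPM in Dlx2OE. Each Dlx2OE sample lay below each WT sample. Its mean fell from 271 ± 36.4 to 166 ± 12.7 CPM (SD, n = 3 each), with a log2 fold change of -0.71 ± 0.13 (SE, edgeR adjusted p = 0.0253). A share of 3.46% of all genes was called lower. With WT sample 2, Dlx2OE sample 2 or Dlx2OE sample 3 left out, 0 genes of these wider lists passed in edgeR. The same held with the correction for length and GC content. With DESeq2 on all samples 5 passed, where 13.8% of all genes were called. Cdkn1b, p27, was at -0.19 (adjusted p = 0.195), and Cdkn2a was too low for a test, with a mean of 0.0674 CPM in WT.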

How the data were processed

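The authors trimmed paired-end reads, mapped them to mm10 with STAR 2.7.3a, counted them per gene with HTSeq 0.12.4 in union mode, and deposited raw counts for each sample, without normalization. The annotation release and strand setting are not given in the sources used here. Sources differ on whether the RNA came from 6 or 7 littermates. Symbols, positions and lengths came from GENCODE M21, which holds 53706 of 53801 genes. Counts on genes were 26155500 to 31308813 per sample, and 3 counts correspond to 0.0955 to 0.111 CPM. Such limits cover counting error only, as reads are not independent molecules. The 5 summary lines of each file, among them reads assigned to no feature, were left out of tests.

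The genotypes were compared by the quasi-likelihood F test of edgeR 4.0.16 (R 4.3.3), after filterByExpr with a minimum count of 10 and TMM scaling. Genotype was the sole term, and p-values were adjusted over 17514 genes by the Benjamini-Hochberg procedure. Log2 CPM behind the medians per sample, the sample correlations and the length and GC correction used a prior count of 2. Log2 fold changes were those of the edgeR fit. For 1 gene, an exact two-sided permutation test of 3 against 3 samples cannot give a p below 0.1. The study used DESeq2, here an alternative (1.42.0). Others are given at the end. Scripts were tested on simulated data. Promoters came from RefSeq (GRCm38.p6), and figures were drawn with matplotlib 3.10.9.

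Members and lists were chosen with earlier results of these data known. Values per sample are given for members with an unadjusted p under 0.05 and, in each role, for the highest level per length, the largest rise and the largest fall. Each wider list names its called genes, or its smallest p. Cdkn1b, Cdkn2a and the remaining members are named outside this rule.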

Additional observations from a re-analysis of the deposited data

How the results depend on the processing

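The G1/S and G2/M medians stayed above 0 in every alternative run, but all runs drew on the same 6 samples. With library size alone the median of all genes was itself 0.070, beside 0.14 in both phases. With no filter it was 0.031, beside 0.046 in G1/S and 0.057 in G2/M. The length and GC correction moved the G2/M median from 0.079 to 0.16, or 0.16 with the block, with G1/S at 0.053 and 0.054. Members called numbered 4 with DESeq2, 1 with the length and GC correction, and 0 to 4 when 1 sample was left out. They stayed at 2 with RLE factors, library size alone, either filter and without mitochondrial and haemoglobin genes. Calls in the wider lists went from 1 to 5 with DESeq2, 3 with library size alone, 2 with no filter, 3 with at least 10 counts in every sample, 0 with the length and GC correction, and 0 to 5 without 1 sample. The calls over all genes went from 1130 to 2478 with DESeq2, 2044 with no filter, 84 with the length and GC correction and block, and 79 to 2091 without 1 sample. The cause was not tested.

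With the replicate block 1 member was called (E2f1), and with the block and the length and GC correction 0 members and 0 genes of the wider lists. Same-numbered samples of the genotypes correlated at -0.072, -0.21 and 0.073, so the numbers gave no sign of pairing.

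Of the members given with values per sample, 8 changed sign under some alternative, and none of the 8 was called. Signs also changed among the other members. Rrm1 and Ccnb1 each kept theirs in 10 of 15 alternatives, Aurka in 11, and Ccnd2, Chek1, Cdc6, Mcm4 and Cenpa in 12. With library size alone E2f5 was at 0.064 and Cdk2 at 0.038, and with no filter Plk1 at -0.017. With the length and GC correction E2f5 was at 0.17, Gmnn at 0.042, Pcna at 0.022 and Ccnb2 at 0.012, and with the block as well at 0.18, 0.035, 0.020 and 0.011. Without 1 sample, E2f4 ranged from -0.056 to 0.084, E2f5 from -0.13 to 0.13, Cdk2 from -0.12 to 0.077, Pcna from -0.27 to 0.038, Plk1 from -0.081 to 0.046 and Cdc20 from -0.0023 to 0.14. With 3 samples per genotype, the median SE of a member was 0.14 on the log2 scale, so a change of that size was not detectable.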
